A study of Mus musculus with 3 samples.

Results

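*Pdgfra* mRNA was found in 49.4% of cells of cluster 4 and in 1.08 to 3.32% of cells of the other clusters, and 2 classes of cluster 4 cells were set against each other. Of 518 cells in the cluster (9562 in the whole table), 512 had at least 5000 unique molecular identifiers (UMIs, each standing for 1 captured mRNA molecule) and 6 did not and were left out. The *Pdgfra*-positive class held the 211 cells above 0.5 *Pdgfra* UMIs per 10000 UMIs of the cell. The *Pdgfra*-negative class held the 259 cells without a *Pdgfra* UMI, and 42 cells with a level in between belonged to neither. Positive cells had higher levels of mRNAs for *Twist1*, *Prrx1* and other transcription factors of embryonic mesenchyme (log2 ratios 1.77 and 1.58, or 0.81 and 0.92 when each cell was thinned to 5000 UMIs and the classes were split again at that depth). Negative cells had higher levels of the epithelial genes *Krt8* and *Epcam* and the neuronal gene *Tubb3* (log2 ratios -2.38, -5.31 and -2.66). *Krt8* and *Tubb3* were highest in separate, smaller groups of negative cells, which were picked by lists holding these genes, so this is no result. The neural gene *Sox2* was also found in part of the remaining 158 negative cells. These 158 cells held 5.24 UMIs per 10000 of the collagen mRNA *Col1a1*, against 4.88 in positive cells. Positive cells were higher in libraries 1 and 3 and lower in library 2. With cells of such groups left out of the positive class too, it stood at 3.85 and was higher in library 3 only.

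Endothelial cells were sorted from the hearts of adult female mice as GFP+ cells with CD31 and VE-Cad and without CD41, CD45, PDGFRA and PDGFRB. After culture they were sorted again as GFP+CD31+VE-Cad+PDGFRA- cells, a gate for which CD41, CD45 and PDGFRB are not named. Fresh cells (0 h) and cells cultured for 24, 48, 72 or 96 h were used. The cultures were co-aggregates with Mesp1der PSCs of E11.5 embryos, which are PDGFRA+ stromal cells of the aorta–gonad–mesonephros sorted by the DsRed reporter of a *Mesp1* lineage. The cultures contained the cytokines IL-3, SCF and Flt3L, and the time points were combined into 3 pools (A, B and C). Neither the time point nor the pool of a cell is given in the material used here, and the barcodes carry a library suffix from 1 to 3 that no label ties to a pool. The matrix therefore counts as 1 sample, values are given for libraries 1, 2 and 3 side by side, and no test was made.

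PDGFRA is a receptor tyrosine kinase for platelet-derived growth factors. It sits on mesenchymal cells of the embryo and on fibroblasts, while its ligand PDGF-A is commonly made by adjoining epithelia, neurons and muscle. The related receptor PDGFRB is known from pericytes and smooth muscle. TWIST1, TWIST2 and PRRX1 are transcription factors of mesenchyme in limb, face and body wall, and TWIST1 binds DNA at E-boxes (CANNTG).

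*Pdgfra* lies on chromosome 5 (75152292 to 75198215, plus strand, GRCm38) and *Epcam*, which encodes an adhesion protein of epithelia, on chromosome 17 (87635979 to 87651129, plus strand). The 250 bases before their RefSeq transcript starts (build GRCm38.p6, 5′ to 3′) are shown because these genes mark the opposite sides of the comparison. E-boxes are in capitals. Since the 6-letter pattern reads the same on both strands, 1 search covers both.
Pdgfra promoter, chr5:75152001-75152250: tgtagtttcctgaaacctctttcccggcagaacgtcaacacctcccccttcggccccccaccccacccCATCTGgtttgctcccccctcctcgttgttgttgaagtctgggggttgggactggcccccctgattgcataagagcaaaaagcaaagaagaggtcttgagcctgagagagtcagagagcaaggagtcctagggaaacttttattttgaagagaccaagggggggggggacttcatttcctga
Epcam promoter, chr17:87635729-87635978: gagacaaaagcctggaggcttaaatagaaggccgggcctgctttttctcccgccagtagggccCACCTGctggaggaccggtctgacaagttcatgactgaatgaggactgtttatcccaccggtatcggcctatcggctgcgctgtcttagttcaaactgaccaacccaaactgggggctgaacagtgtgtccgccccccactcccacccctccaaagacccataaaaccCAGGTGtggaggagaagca
One E-box was found before *Pdgfra* and 2 before *Epcam*. Of 27025 promoters of this length in the RefSeq table, 66.0% held at least 1 such pattern, so its presence does not set either gene apart. Of the 11 genes that were higher in positive cells, 9 matched the table and 2 of these promoters held the pattern, against 22 of 43 matched genes among 55 lower ones. A match is a description of the letters and not a binding site.

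The classes were of like size in the 3 libraries and of like depth over all libraries, with a deeper positive class in library 2. Positive cells made up 90 of 214 cells of library 1 (42.1%), 79 of 178 of library 2 (44.4%) and 42 of 120 of library 3 (35.0%), or 41.2% in all (95% exact binomial interval 36.9 to 45.6%, counting error only). The median cell held 18244 UMIs in the positive and 17731 in the negative class. Library 2 was the shallowest, with medians of 14779 and 10188, and library 3 the deepest, with 36086 and 33659. Cells in between had a median of 33367 UMIs, a depth at which 1 UMI lies under the threshold. Positive cells held a median of 1.15 *Pdgfra* UMIs per 10000 (0.5 to 7.54). When every cell was thinned to 5000 UMIs, 52.6% of positive cells kept a *Pdgfra* UMI, so a cell without one is not shown to lack the mRNA. In endothelial cluster 2, 1.45% of cells held a *Pdgfra* UMI (0.521% at 5000 UMIs). Of the members next to the threshold, the 11 cells from 0.4 to 0.5 had 1.47 *Twist1*, 1.54 *Prrx1*, 34.4 *Col1a1* and 0.946 *Krt8* UMIs per 10000, and the 20 cells from 0.5 to 0.6 had 3.27, 1.17, 14.99 and 1.88. Among 13 barcodes found in more than 1 library of the whole table, 3 cells lay in cluster 4.

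**Figure D1:**
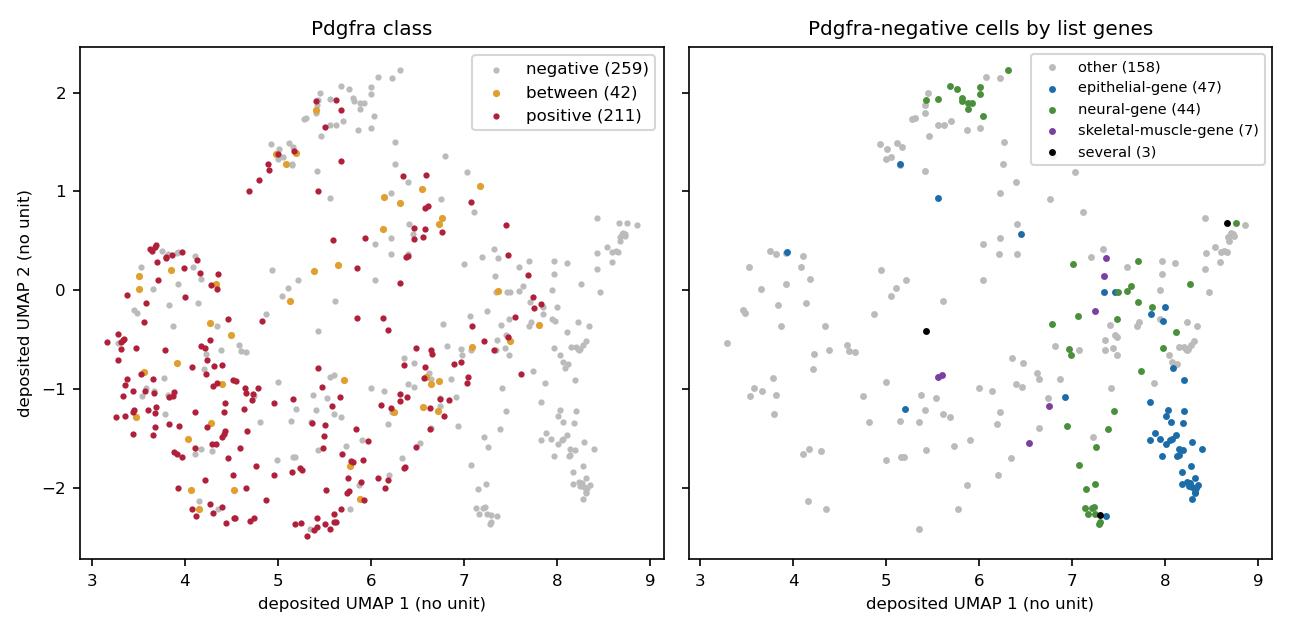
Cells of cluster 4 with at least 5000 UMIs on the coordinates the authors deposited (no unit), coloured by *Pdgfra* class on the left and, for negative cells only, by which list had at least 3 genes detected at 5000 UMIs on the right. Positive cells lie mostly at the left and bottom, and most of the 47 epithelial-gene cells lie together at the lower right.

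The endothelial gate was checked against its markers. *Cdh5*, which encodes VE-cadherin, stood at 0.421 UMIs per 10000 in positive and 0.627 in negative cells, against 4.29 in endothelial cluster 2, and *Pecam1* (CD31) at 0.523 and 0.486 against 3.30. The summed level of the 14 endothelial markers ranged over libraries from 3.26 to 6.30 in positive and from 4.55 to 6.60 in negative cells, and none of the 5 that reached the level filter passed 2-fold. The 13 haematopoietic markers summed to 0.388 and 0.589. At 5000 UMIs *Cdh5* was detected in 11.8% of positive and 18.5% of negative cells, against 86.0% in cluster 2 and 29.7%, 22.4% and 20.4% in clusters 3, 5 and 6, where its level was 0.640, 0.585 and 0.503. The shares in both classes were thus no higher than in clusters 3, 5 and 6. At least 3 endothelial markers were found at that depth in 34 of 211 positive (16.1%) and 60 of 259 negative cells (23.2%). Positive cells had *Pdgfra* mRNA although the sort was for PDGFRA- cells. How these cells passed the gate was not tested.

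Ratios were computed for 3735 genes with at least 0.5 UMIs per 10000 in the higher class, leaving out *Pdgfra*. A gene was counted as higher or lower when it differed at least 2-fold in each of the 3 libraries. By this count 11 genes were higher (0.295% of those ranked) and 55 lower (1.47%) in positive cells, and the median log2 ratio of all ranked genes was 0.03. Both classes come from the same cells that were compared, and a gene that reached the level filter only through its high class had to differ, so these counts describe the classes and test nothing. In single cells, too, fewer cells with a gene and less mRNA per cell give the same summed level.

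*Twist1*, on chromosome 12 (33957671 to 33959829), had the highest ratio in its weakest library (log2 1.64) of the 11 genes. Its level was 2.92, 3.68 and 4.06 UMIs per 10000 in positive cells of libraries 1, 2 and 3 and 0.899, 0.846 and 1.30 in negative cells. No library's negative class reached any positive one, and the pooled log2 ratio was 1.77 (95% counting interval 1.63 to 1.91). The gene was detected in 81.0% of positive and 35.1% of negative cells, or 63.0% and 22.4% at 5000 UMIs, against 1.97% at that depth in cluster 2. When the classes were split again at 5000 UMIs per cell, which moves cells whose *Pdgfra* UMI was lost to the negative class, the ratio was 0.81, and the 11 higher genes ranged from 0.33 (*Zic1*) to 1.16 (*Aldh1a2*). *Prrx1*, a homeobox gene on chromosome 1 (163245119 to 163313710), stood at 1.73, 2.57 and 1.80 in positive and 0.445, 0.915 and 0.792 in negative cells (log2 ratio 1.58, 1.40 to 1.76). *Twist2* was lower in abundance, at 0.523, 0.657 and 0.758 against 0.218, 0.190 and 0.150 (1.76, 1.43 to 2.10). *Foxc1*, a forkhead factor of paraxial and vascular mesenchyme, stood at 0.958, 0.815 and 1.19 against 0.454, 0.406 and 0.300 (1.35). Of 17 ranked genes in a list of 30 mesenchymal transcription factors, only these 4 were counted as higher, against 0.295% of all ranked genes. *Twist2* and *Foxc1* reached the level filter only through positive cells, so their direction was fixed by the filter. None of the 17 ranked members was counted as lower, and their median log2 ratio was 0.87. The list summed to 24.5, 26.4 and 26.7 UMIs per 10000 in positive and 14.3, 16.5 and 14.8 in negative cells. The libraries were thus close to each other, and the library sums of the classes did not overlap. Single cells did overlap, with medians of 25.3 in positive and 13.0 in negative cells and up to 55.8 in a negative cell. *Snai1*, an inducer of epithelial-to-mesenchymal transition, had a log2 ratio of 1.43 but only 0.72 in library 2. *Zeb2*, another repressor of epithelial genes, went the other way in each library without reaching 2-fold (log2 ratio -0.50).

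The remaining genes counted as higher had other functions. *Aldh1a2*, which encodes the main retinoic acid-forming enzyme of the embryo, stood at 1.27, 0.906 and 1.31 UMIs per 10000 in positive and 0.324, 0.388 and 0.264 in negative cells (log2 ratio 1.90, 1.65 to 2.15), although 28.9% of positive cells held a UMI of it. *Pkdcc*, a secreted kinase of the developing skeleton, stood at 2.18, 2.16 and 1.98 against 0.777, 0.880 and 0.813. Collagens of low abundance followed, namely *Col26a1* (log2 ratio 1.42) and *Col11a1* (1.12), the latter a component of cartilage fibrils. The others were the lysophosphatidic acid receptor *Lpar1* (1.27) and the transcription factors *Foxp2* (1.19) and *Zic1* (1.13).

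**Figure D2:**
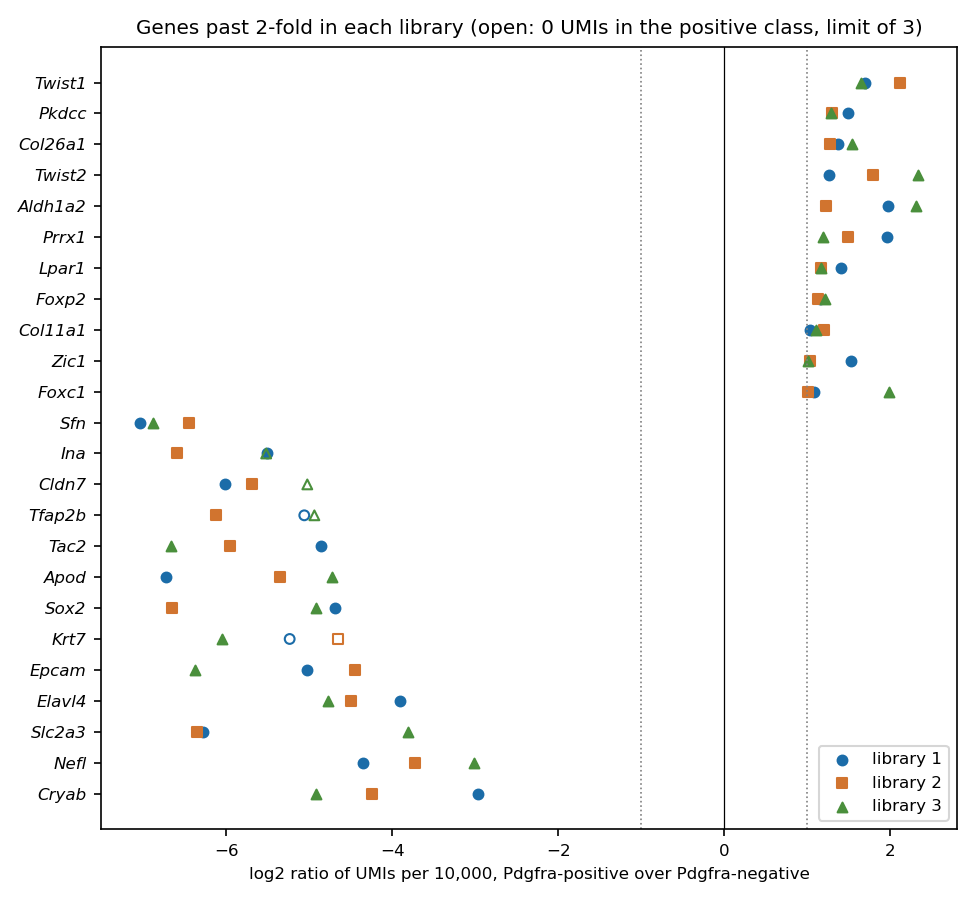
Log2 ratio of UMIs per 10000, positive over negative class, for the 11 higher genes and 13 of the 15 lower genes with the largest ratio in their weakest library. Each point is 1 library, open points stand at the limit of 3 UMIs for a class with none, and dotted lines mark 2-fold. *Twist1* is at 1.64 or above in every library and *Sfn*, with 3 UMIs in positive cells, at -6.44 or below.

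The abundant fibrillar collagens, in contrast, did not separate the classes by summed level. *Col1a1*, on chromosome 11 (94936224 to 94953042), stood at 6.18, 3.22 and 4.76 UMIs per 10000 in positive and 4.18, 5.56 and 2.20 in negative cells. The order of the classes turned in library 2, where negative cells were higher (log2 ratios 0.57, -0.79 and 1.11). By cells with a UMI the classes kept their order, with *Col1a1* in 82.2%, 78.5% and 88.1% of positive and 39.6%, 46.1% and 50.8% of negative cells, or 55.9% and 27.4% in all at 5000 UMIs, against 0.856% in cluster 2. *Col3a1* and the small proteoglycans *Dcn* and *Lum*, which organise collagen fibrils, turned in the same library, with log2 ratios there of -0.14, -1.96 and -1.30. For *Dcn* the levels were 1.49, 0.755 and 2.70 in positive and 1.26, 2.93 and 0.176 in negative cells. The 35 genes of collagens and matrix held 1 higher, 2 lower and 22 uncounted genes among 25 ranked, with a median log2 ratio of 0.37. The lower 2 were *Eln*, the elastin gene (log2 ratio -2.50), and *Col18a1*, a basement membrane collagen (-1.33, at 1.27, 1.43 and 1.02 against 3.42, 3.13 and 2.70). Versican (*Vcan*), a matrix proteoglycan of early mesenchyme, stood at 3.26, 5.73 and 6.24 against 1.55, 2.94 and 2.26 (log2 ratio 1.24), and missed the count through library 2 (0.96). For the 16 mesenchymal markers, 3 of 11 ranked genes (*Twist1*, *Twist2* and *Prrx1*) were counted as higher, against 0.295% of all ranked genes, and none as lower. *Twist2* reached the level filter only through positive cells, so its direction was fixed by the filter. The summed level of the list without *Pdgfra* was 31.4, 23.8 and 28.0 in positive and 19.6, 26.6 and 12.2 in negative cells. The mesenchymal label of positive cells thus held for *Twist1* and *Prrx1* in each library. For *Col1a1* it held in the share of cells but not in the summed level of library 2. Of 12 cartilage and bone markers 4 were ranked. None was counted as higher and 1 as lower (*Spp1*, log2 ratio -4.24), which reached the level filter only through negative cells. The cartilage genes *Sox9*, *Col2a1* and *Col9a1* had log2 ratios of 0.93, 0.98 and 1.44, above 0 in each library. They were under 2-fold in library 2 and, for *Col2a1*, also in library 3. The list summed to 4.56, 4.49 and 6.85 in positive and 2.39, 8.19 and 2.84 in negative cells, so library 2 turned.

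*Pdgfrb*, the gene of the sister receptor, was not counted in either direction. It stood at 0.567, 0.551 and 0.408 UMIs per 10000 in positive and 0.370, 0.457 and 0.264 in negative cells (log2 ratio 0.54, 0.26 to 0.82), higher in positive cells of each library. The ligand *Pdgfa*, on chromosome 5 (138976014 to 138997370), lay on the opposite side, at 0.237, 0.121 and 0.136 in positive and 1.23, 1.42 and 1.14 in negative cells (log2 ratio -2.86, -3.21 to -2.52). It was the only gene counted among the 3 ranked of 7 PDGF ligands and receptors, against 1.47% of all ranked genes counted as lower. *Pdgfa* reached the level filter only through negative cells, so its direction was fixed by the filter. *Pdgfc* had a log2 ratio of 0.22, and *Pdgfb*, *Pdgfd* and *Pdgfrl* were under the level filter in both classes.

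All 8 ranked genes of the 20 epithelial markers were counted as lower in positive cells, against 1.47% of all ranked genes. All but *Krt18* reached the level filter only through negative cells, so their direction was fixed by the filter. The median log2 ratio of the 8 was -3.84. *Krt8*, a keratin of simple epithelia on chromosome 15 (101996698 to 102004482), stood at 0.925, 0.241 and 0.188 UMIs per 10000 in positive and 3.35, 1.89 and 1.93 in negative cells (log2 ratio -2.38, -2.58 to -2.17). *Epcam* stood at 0.0551, 0.0377 and 0.0194 against 1.80, 0.820 and 1.61 (-5.31, -6.07 to -4.64). The tight junction gene *Cldn7* and the keratin *Krt7* had 3 UMIs and 1 UMI in all positive cells against 337 and 297 in negative cells. Their log2 ratios of -6.59 and -7.99 rest on these few UMIs and were -3.24 and -2.79 with the classes split at 5000 UMIs, where *Sfn* moved from -6.82 to -4.19. The list summed to 2.28, 1.13 and 0.881 in positive and 13.6, 8.01 and 10.7 in negative cells. At 5000 UMIs *Krt8* was detected in 9.95% of positive and 19.3% of negative cells, against 0.298% in cluster 2.

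All 5 ranked genes of the 14 neural and neural crest markers were lower as well, against 1.47% of all ranked genes. Each reached the level filter only through negative cells, so this direction too was fixed by the filter. The neuronal tubulin *Tubb3* stood at 0.562, 0.234 and 0.382 UMIs per 10000 in positive and 2.82, 2.01 and 2.67 in negative cells (log2 ratio -2.66, -2.89 to -2.45). *Sox2*, a transcription factor of neural and epithelial progenitors, had a log2 ratio of -5.14. Neurofilament genes (*Nefl*, *Nefm*, *Ina*) and the RNA-binding protein gene *Elavl4* were counted as lower too. *Ina* had 3 UMIs in positive cells, and its log2 ratio of -6.74 was -2.41 with any *Pdgfra* UMI as positive. The list summed to between 0.694 and 1.02 in positive and between 7.29 and 9.18 in negative cells.

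Muscle genes gave no single picture. The 15 skeletal muscle markers summed to 0.215, 0.709 and 0.227 UMIs per 10000 in positive and 3.88, 3.36 and 0.968 in negative cells, but the 1 ranked gene, *Myog*, a regulator of myoblast differentiation, was not counted. It had 340 UMIs in negative cells and none in positive cells, and at 0.00518 was next to absent from negative cells of library 3. The 20 cardiac markers summed to 10.3, 3.75 and 3.09 in positive and 6.26, 4.66 and 3.81 in negative cells, so that positive cells were higher in library 1 and lower in the others. Of 5 ranked genes 1 was counted as lower, the sarcomere gene *Ttn* (log2 ratio -1.76), at 0.435, 0.00755 and 0 against 0.895, 0.725 and 0.0983. The atrial light chain gene *Myl7* carried part of this, at 2.01, 0.0453 and 0.0194 in positive cells. Without library 1 the list had a log2 ratio of -0.28 in place of 0.27. The 14 smooth muscle and pericyte markers had log2 ratios of -0.35, 0.57 and -0.25, and none of 5 ranked was counted. *Acta2*, smooth muscle actin, was higher in negative cells of libraries 1 and 3 (6.79 and 4.94 against 3.56 and 2.27) and lower in those of library 2 (4.04 against 7.03). A description of negative cells as muscle-like therefore held for skeletal muscle genes in few cells, and not for the summed cardiac or smooth muscle lists. For *Ttn* it held in each library only against all negative cells. Without the epithelial-, neural- and skeletal-muscle-gene cells of either class, defined below, pooled *Ttn* was higher in positive cells. It stood at 0.177 against 0.0774 UMIs per 10000 (80 and 25 UMIs, log2 ratio 1.19). This rested on library 1 (3.60), while libraries 2 and 3 stayed lower in positive cells (-0.72 and -3.09).

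**Figure D3:**
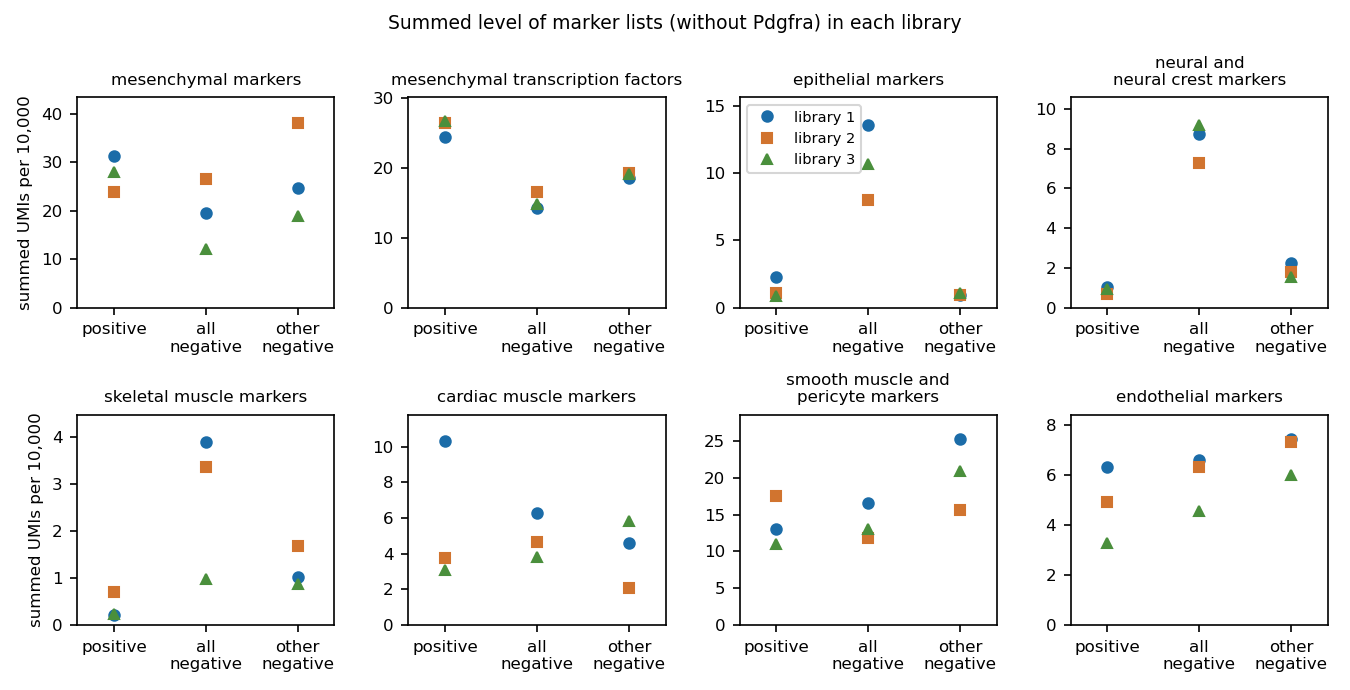
Summed UMIs per 10000 of 8 marker lists, without *Pdgfra*, in positive cells, all negative cells and the other negative cells that remain without epithelial-, neural- and skeletal-muscle-gene cells, with 1 point per library. Mesenchymal transcription factors lie at 24.5 to 26.7 in positive and 14.3 to 16.5 in negative cells, and epithelial and neural genes are low in other negative cells, as the way these were chosen requires.

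Genes of signals between stroma and blood cells were examined next. Of 28 haematopoietic niche factors, 9 were ranked, none was counted as higher and 1 (*Spp1*, osteopontin) as lower, and the list summed to 47.1 in positive and 35.1 UMIs per 10000 in negative cells. *Spp1* rested on library 2, where negative cells had 4.52 and positive cells 0.0529, against 0.0828 and 0.0389 in library 3. *Igf1* was at 1.09 against 0.462 (log2 ratio 1.24) and the heparin-binding factor *Ptn* at 7.48 against 4.19 (0.84), neither with 2-fold in each library. *Cxcl12*, the chemokine that retains blood stem cells, stood at 4.01, 2.51 and 5.69 in positive and 2.31, 2.80 and 1.75 in negative cells, so that library 2 again turned. Stem cell factor (*Kitl*) had a log2 ratio of -0.24. Among WNT ligands and antagonists, *Wnt4* and *Wnt6* were lower in positive cells (-1.92 and -3.66), while *Wnt5a* and the antagonists *Sfrp1* and *Sfrp2*, with log2 ratios of 0.99, 0.99 and 0.92, were above 0 in each library but not counted. None of the 6 ranked BMP genes and none of the 3 ranked NOTCH genes was counted. *Bmp4* had the largest value of the former (0.91, and 0.12 in library 3).

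Among genes of growth and stress, none of 20 cell cycle genes, 12 ranked imprinted fetal growth genes or 10 ranked immediate early and stress genes differed 2-fold in each library. The imprinted list, which holds fetal genes such as *H19*, *Igf2* and *Peg3*, summed to 82.0 UMIs per 10000 in positive and 65.9 in negative cells. *Peg3* had the largest ratio of these (log2 0.79). The cell cycle list summed to 41.1 and 35.5. Lists of other embryonic tissues were low in both classes, at 0.841 and 1.06 for nephric, 0.651 and 1.36 for gonadal and adrenal, 0.0918 and 0.190 for liver and yolk sac endoderm and 0.0875 and 0.102 for germ cell and pluripotency markers. Mesothelial markers summed to 2.31 and 1.75, of which *Aldh1a2* alone held 1.18 and 0.316.

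To see which cells carried the lower genes, cells were sorted by how many genes of a list they showed at 5000 UMIs. The limit of 3 genes was set with the values already known, and a class made this way is a range and not a cell type. At least 3 epithelial markers were found in 48 of 259 negative cells (18.5%, interval 14.0 to 23.8%) and in 4 of 211 positive cells (1.90%, 0.519 to 4.78%), with 24, 14 and 10 of the negative cells in libraries 1, 2 and 3. Neural markers reached that number in 47 negative (18.1%) and 3 positive cells (1.42%). Skeletal muscle markers did so in 9 negative cells (3.47%) and in 0 of 211 positive cells (exact upper bound 1.73%). Near the limit, 3 negative cells had exactly 3 epithelial and 13 exactly 3 neural markers. Mesenchymal markers other than *Pdgfra* reached 3 genes in 180 positive cells (85.3%) and 106 negative cells (40.9%). Of the negative cells, 47 were set apart by epithelial genes alone, 44 by neural genes alone, 7 by skeletal muscle genes alone and 3 by more than 1 list, leaving 158 others (61.0%).

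The groups of negative cells differed from positive cells partly in different and partly in shared genes. Since they were picked by list genes, those genes are no result. In the 47 epithelial-gene cells *Krt8* stood at 11.8 and *Epcam* at 7.37 UMIs per 10000, and *Twist1* at 0.188. Beyond the list, *Tfap2b*, a transcription factor of ectoderm, kidney and neural crest, stood at 1.41 and the epidermal gene *Sfn* at 3.53, against 0.00213 and 0.0064 in positive cells. In the 44 neural-gene cells *Tubb3* stood at 13.9 and *Sox10*, a factor of neural crest and glia, at 1.31, while *Prrx1* had no UMI and *Twist1* stood at 0.0112. *Apod*, found outside the list, stood at 10.5 there but in 15 of 44 cells. *Tfap2b* was high in this group too, at 1.18 and in 16 of 44 cells. In the 7 skeletal-muscle-gene cells *Myog* stood at 14.6. *Cdh15*, a cadherin of myoblasts that was in no list, was found in 7 of 7. *Pdgfa* was high in each of these groups, at 2.96, 1.44 and 2.79, and stood at 0.489 in other negative cells and 0.171 in positive cells.

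**Figure D4:**
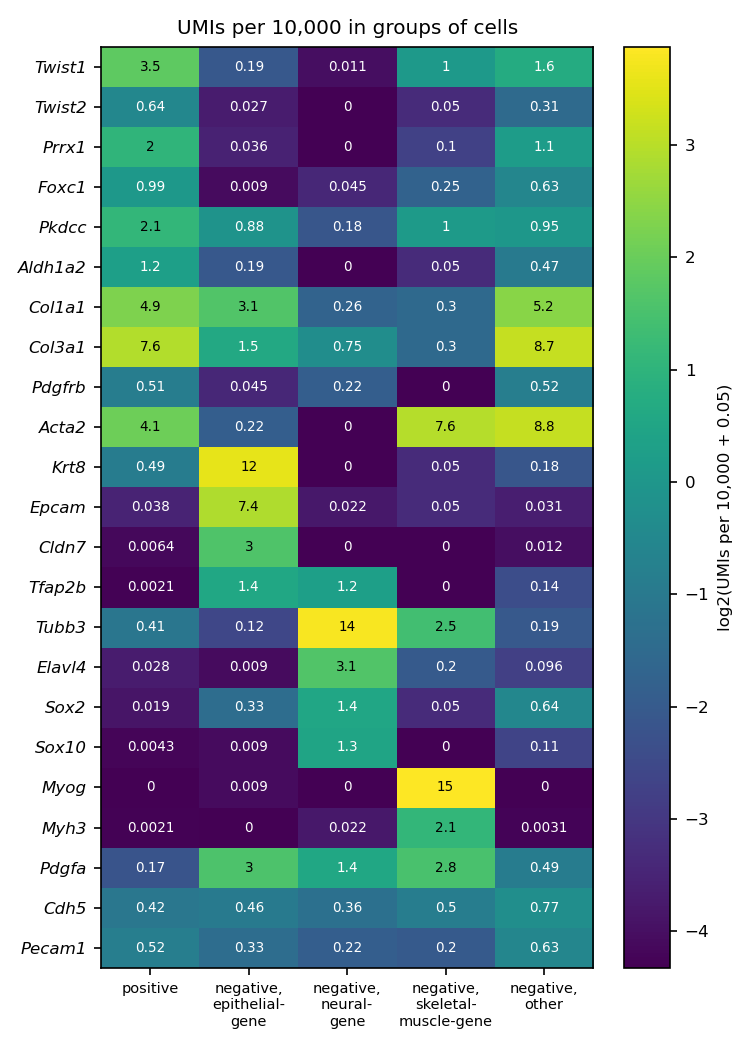
Level of 23 genes in positive cells and in 4 groups of negative cells, printed as UMIs per 10000 and coloured as log2(UMIs per 10000 + 0.05). *Krt8* is at 11.8 in epithelial-gene cells and *Tubb3* at 13.9 in neural-gene cells, while *Col1a1*, over all libraries, is at 4.88 in positive and 5.24 in other negative cells.

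The comparison was repeated without the epithelial-, neural- and skeletal-muscle-gene cells of either class, which left 204 positive and 158 negative cells. Of 3693 ranked genes, 2 were higher (0.0542%) and 14 lower (0.379%). Of the 11 genes higher before, 1 remained (*Pkdcc*, log2 ratio 1.17, 0.98 to 1.36), joined by the guidance molecule *Sema3a* (1.42, 1.01 to 1.86). *Sema3a* reached the level filter only through positive cells. *Twist1* stood at 3.60 against 1.61 UMIs per 10000, with log2 ratios of 0.97, 1.69 and 1.05, just short of 2-fold in library 1. *Prrx1* and *Twist2* had pooled log2 ratios of 0.89 and 1.08. *Pdgfrb* stood at 0.511 against 0.517 (log2 ratio -0.02, -0.31 to 0.28), and *Col1a1* at 3.85 against 5.24, with log2 ratios of -0.47, -1.39 and 0.39 in libraries 1, 2 and 3. The mesenchymal marker list had a pooled log2 ratio of -0.01 and the smooth muscle list of -0.63. *Acta2* contributed most to the latter (4.25 against 8.77), with library 2 in the opposite direction. With all positive cells kept, the mesenchymal list stood at 31.4, 23.8 and 28.0 UMIs per 10000 in libraries 1, 2 and 3. It stood at 24.6, 38.2 and 18.9 in the other negative cells, so library 2 turned here as well.

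Among the 14 genes lower in positive cells, 9 had also been lower against all negative cells. These negative cells were part of that first comparison, so the overlap is no support. All but *Ckb* reached the level filter only through negative cells, so their direction was fixed by the filter. *Sox2* stood at 0.0174, 0.00784 and 0.0198 UMIs per 10000 in positive and 0.596, 0.761 and 0.620 in negative cells, lower in positive cells of every library (log2 ratio -5.38), with UMIs in 25 of the 158 negative cells. *Hes5*, a NOTCH target of neural progenitors, *Fabp7*, a lipid-binding protein of radial glia, the endothelin receptor gene *Ednrb* and *Pax3* of neural crest and muscle progenitors were lower with it. So were the interferon-induced genes *Isg15* and *Bst2*. *Eln* stood at 0.209, 0.0784 and 0.112 against 2.13, 0.993 and 0.691 (-3.28). *Ccl5* and *Spp1* had the largest ratios of the rest, but UMIs of *Ccl5* came from 11 and those of *Spp1* from 17 of the 158 cells. *Cebpb*, *Ckb*, *Nrarp* and *Chchd10* completed the 14.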

How the data were processed

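The authors prepared 10x Genomics 3′ v3 libraries, and used Cell Ranger 3.1.0 with mm10 (GRCm38), per the labels, for alignment and counting. Libraries were aggregated with batch-effect removal. The submitters' processing notes also name Seurat 3.1.5. The deposited table holds raw UMI counts for 9562 singlets and 27998 gene identifiers (27645 with a GENCODE M21 name, equal names summed). UMAP coordinates, a score without unit, and cluster numbers were deposited by the authors, and the deposited normalized values were not used. No further doublet caller was run. The members and gene lists were chosen with earlier results of these data known. Levels are summed UMIs of a class per 10000 UMIs of the class. Ratios were taken within each library and pooled, with exact conditional binomial 95% intervals (counting error only), and a class with 0 UMIs was given 3 UMIs as its limit. Named genes are *Pdgfra*, *Pdgfrb*, *Krt8*, *Col1a1*, list members and up to 15 counted genes per direction, and genes outside this rule were named after their values were seen. Some items are not reported here. Scripts were tested on simulated data. Thinning drew 5000 UMIs per cell (seed 1). Software was scipy 1.17.1, numpy 2.4.6, pandas 2.3.3 and matplotlib 3.10.9 under Python 3.11.15.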

Additional observations from a re-analysis of the deposited data

How the results depend on the processing

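No paired analysis was possible because the values come from no test, and ratios were taken within each library. The main values were 11 genes higher, 55 lower, a share of 41.2% positive cells and log2 ratios of 0.61, -2.93, 0.27 and -0.07 for mesenchymal, epithelial, cardiac and smooth muscle lists. With any *Pdgfra* UMI as positive, 7 genes were higher, the share was 49.4% and the smooth muscle list stood at 0.64. Above 1 UMI per 10000 the share was 24.2% and the cardiac list -0.72. At 5000 UMIs per cell 5 genes were higher and 28 lower, the share was 23.6%, and the epithelial and cardiac lists stood at -2.37 and -0.90. A minimum level of 0.1 gave 29 higher and 238 lower genes, a minimum of 1 gave 6 and 24, and 1.5-fold gave 50 and 84. Leaving out 1 library at a time gave 18 to 23 higher and 59 to 81 lower genes, with fewer libraries that had to concur, and cardiac list values from -0.28 (without library 1) to 0.44. Averaging over cells turned the cardiac list to -0.15. Without epithelial-, neural- and skeletal-muscle-gene cells, chosen after seeing the data, 2 genes were higher and 14 lower, the share was 51.1%, the smooth muscle list stood at -0.63, and *Sfn* (0.10) and *Tac2* (0.19) reversed. The cause of the other changes was not tested. The ratios of 26 genes kept their direction in 309 of 311 values under alternatives, and 79 values moved by at least the standard deviation over libraries. These genes were chosen for large ratios in each library of the same data, so the kept direction tests nothing. Leaving out cells with *Cdh5* or *Ptprc*, the trimmed mean of M values, no minimum of UMIs and leaving out shared barcodes kept the counts within 1.5 times. Precision is limited by 42 to 111 cells per class and library.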

Other observations

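Y-linked transcripts (*Ddx3y*, *Eif2s3y*, *Kdm5d*, *Uty*) were found in 115 of 211 positive cells (54.5%, 95% exact binomial interval 47.5 to 61.4%) and 139 of 259 negative cells (53.7%, 47.4 to 59.9%), although the methods state that hearts came from female mice. *Xist*, the transcript of the inactive X chromosome, was found in 52.6% of positive and 41.3% of negative cells. Y-linked transcripts without *Xist* were found in 91 positive cells, *Xist* without them in 87, both in 24 and neither in 9. For negative cells these numbers were 123, 91, 16 and 29, and over all 9472 cells with at least 5000 UMIs the shares were 45.4%, 34.5%, 9.96% and 10.1%. In the endothelial clusters 0, 1 and 2, 53.5%, 62.6% and 53.2% of cells had a Y-linked UMI and 46.5%, 26.2% and 45.8% had *Xist*. Cluster 1 stood apart from both classes, also at 5000 UMIs, where Y-linked UMIs were found in 48.5% of its cells against 34.1% of positive and 33.2% of negative cells. Among the negative groups, *Xist* was found in 10 of 44 neural-gene cells (22.7%) and 25 of 47 epithelial-gene cells (53.2%). The sex of the PSC embryos is not given in the sources used here, and the origin of these transcripts was not tested.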
